A study of Mus musculus with 4 samples.

Results

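The CXC chemokine genes Cxcl1, Cxcl2, Cxcl3, Cxcl5, Cxcl10, Cxcl12, Cxcl13 and Cxcl14 and the receptor genes Cxcr2 and Cxcr4 were followed in the mouse inferior vena cava 48 h after its ligation. The 10 genes were taken by name from the family, with earlier results of these data known. Their counts are set beside the share of all genes for scale and are no test of enrichment. Each was read from the only probe set that the platform annotation assigns to it, out of 18820 genes so named, and all 10 passed the filter on dim genes that left 14115. The study had 4 groups with 1 array each, and the design text, which speaks of 4 biological replicates and of pooling, is read here to mean that each array holds the pooled RNA of 4 mice. They were Cd39-null vein ligated for 48 h, wild-type vein ligated for 48 h, Cd39-null vein after sham surgery and wild-type vein after sham surgery. The labels give the 48 h for the ligated arrays only and no time for the sham arrays. CD39, the product of Entpd1, is a surface enzyme that degrades extracellular ATP and ADP, and the null mice (Cd39-/-) carry no other labelled allele. Mice of either genotype had been crossed into C57BL/6J for at least 8 generations and were age-matched males or females of 8 to 10 weeks. Ligation below the renal veins was complete or partial, with side branches tied and back branches cauterised, whereas the sham operation opened the abdomen and freed the vein. Which sex or kind of ligation went into each pool is not given in the sources used here, nor whether the RNA came from the wall alone or from wall and clot. With 1 array a group, no replicate error stands behind a difference between 2 arrays, and such differences carry no p-value.

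CXC chemokines are small secreted proteins that direct the movement of leukocytes through G protein-coupled receptors. Cxcl1, Cxcl2, Cxcl3 and Cxcl5 act on Cxcr2 and draw neutrophils out of the blood. Cxcl10 is induced by interferon and draws activated T cells through Cxcr3, Cxcl12 is made by stromal and vascular cells and acts on Cxcr4, and Cxcl13 draws B cells through Cxcr5. Neutrophils and monocytes are known to gather in a venous thrombus within hours to days of stasis.

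Some of the neutrophil chemokine genes share a promoter layout. It is shown here because Cxcl1, Cxcl2 and Cxcl3 were all at least 2-fold higher on 1 ligated array, whereas Cxcl10, with matches to the same motif, was not. RefSeq's GRCm38.p6 table gave a promoter for 9 of the 10 genes; Cxcl5 had no entry. The NF-κB motif is 10 letters long and was searched on both strands, from 250 bases before to 50 bases after the annotated start. It was matched in 4 of these 9 genes, Cxcl1, Cxcl2, Cxcl3 and Cxcl10, and in 8.46% of all 32851 promoters of that length. Cxcl1, Cxcl2 and Cxcl3 are related genes in 1 block of chromosome 5 with the same match, so they do not count as separate observations. Whether their shared layout comes from common descent was not tested. Each sequence below runs 5′ to 3′ on the gene's own strand over the 170 bases before the start. These lie at chr5:90891075-90891244 (plus strand) for Cxcl1, chr5:90903729-90903898 (plus strand) for Cxcl2, chr5:90785931-90786100 (plus strand) for Cxcl3 and chr5:92348890-92349059 (minus strand) for Cxcl10. The capitals mark the NF-κB matches and, nearer to the start, the letters ATAAAAGG where they occur.
Cxcl1: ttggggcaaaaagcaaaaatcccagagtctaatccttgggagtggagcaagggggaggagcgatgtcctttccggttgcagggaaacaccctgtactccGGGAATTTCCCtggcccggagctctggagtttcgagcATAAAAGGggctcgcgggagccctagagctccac
Cxcl2: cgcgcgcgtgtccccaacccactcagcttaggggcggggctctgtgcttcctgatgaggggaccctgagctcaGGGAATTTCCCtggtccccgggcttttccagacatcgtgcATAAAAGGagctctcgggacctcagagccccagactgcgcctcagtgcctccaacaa
Cxcl3: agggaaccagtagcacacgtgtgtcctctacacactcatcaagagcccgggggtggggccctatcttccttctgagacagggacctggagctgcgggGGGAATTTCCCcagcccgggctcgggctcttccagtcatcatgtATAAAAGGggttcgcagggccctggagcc
Cxcl10: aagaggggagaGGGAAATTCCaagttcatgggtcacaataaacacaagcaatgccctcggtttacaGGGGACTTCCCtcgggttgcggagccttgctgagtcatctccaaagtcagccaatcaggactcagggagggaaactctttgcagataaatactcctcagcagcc
In Cxcl1, Cxcl2 and Cxcl3 the match is the same string, GGGAATTTCC, beginning 71, 97 and 73 bases before the start in that order. A further match on the other strand overlaps it in all but 1 base. Cxcl10 has 4 matches. Of these, 3 overlap one another and begin 104 or 103 bases before its start, and the other, GGGAAATTCC, begins 159 bases before it. The letters ATAAAAGG, looked for after the sequences had been read, begin 34, 57 and 29 bases before the starts of Cxcl1, Cxcl2 and Cxcl3. None of the other 6 windows held them on the gene's strand, and 1.76% of all promoters held them on either strand. A match describes the letters only and says nothing about binding.

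Expression values are log2 values as the authors deposited them, so a difference of 1 is 2-fold. As a stand-in for background, the 95th percentile of 995 olfactory receptor probe sets lay between 2.67 and 2.97 log2 on the 4 arrays. All 11 endothelial markers and all 14 fibroblast and smooth muscle markers lay above it on every array. The targeted gene Entpd1 read 6.14 log2 on the ligated array labelled Cd39-null, 6.17 on the ligated wild-type array, 4.16 on the Cd39-null sham array and 7.11 on the wild-type sham array. It was thus 7.73-fold lower in Cd39-null than in wild-type sham vein, but the ligated arrays differed by -0.03 log2. The ligated array labelled Cd39-null thus does not bear out its label by this gene, and every direction drawn from it rests on that label. Whether the Entpd1 probes lie in the deleted part of the gene is not given in the sources used here.

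**Figure D1:**
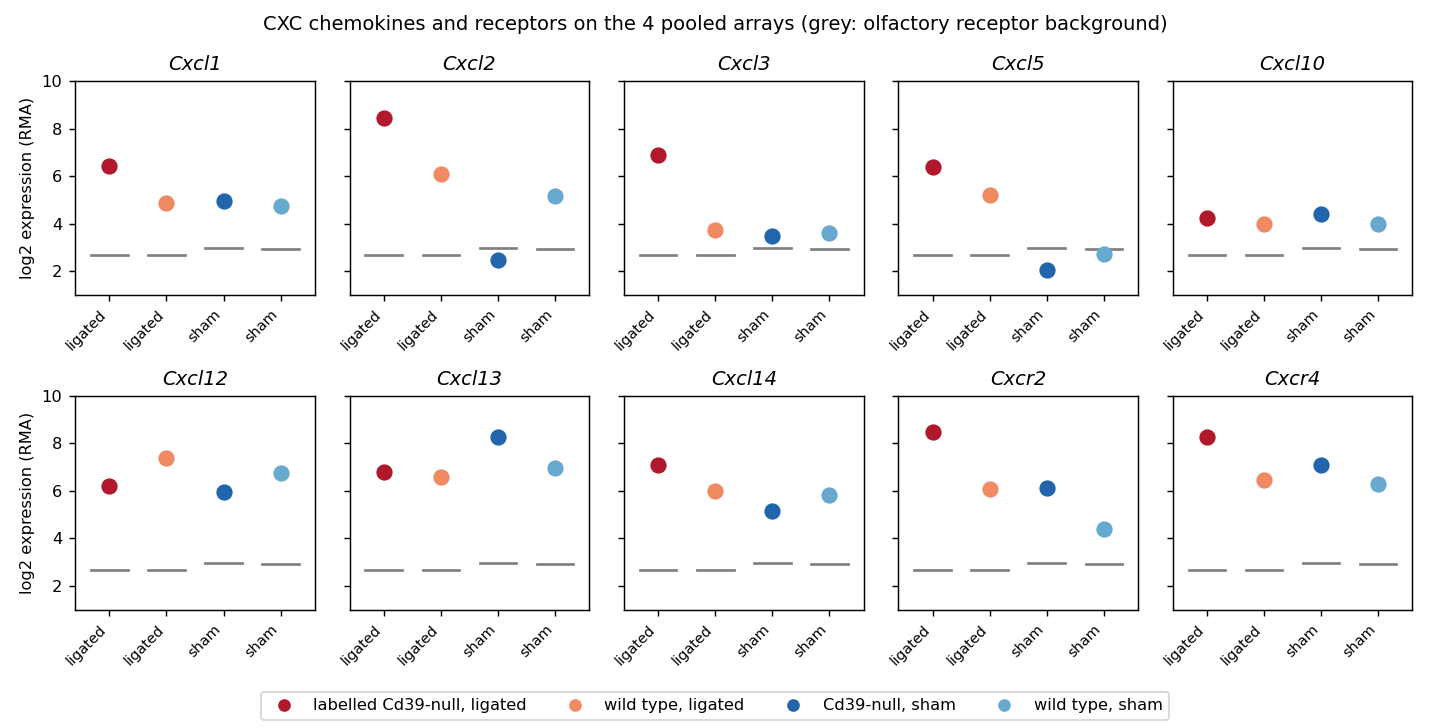
Log2 expression (vertical axis) of the 10 CXC chemokine and receptor genes on the 4 pooled arrays (horizontal axis), 1 point per array. Grey bars mark the 95th percentile of olfactory receptor probe sets. Cxcl2 at 2.46 and Cxcl5 at 2.03 in Cd39-null, sham, and Cxcl5 at 2.74 in wild type, sham, lie under that bar, and all other points lie above it.

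The first question was how 48 h of stasis altered these genes in vein labelled Cd39-null. All 4 members classed here as ligands of Cxcr2 were at least 2-fold higher on the ligated than on the sham array, led by Cxcl2. So were Cxcl14 and the receptors Cxcr2 and Cxcr4. Cxcl13 was at least 2-fold lower, and Cxcl10 and Cxcl12 were less than 2-fold apart. Thus 7 of 10 members were at least 2-fold higher, against 10.9% of all kept genes, and 1 of 10 was at least 2-fold lower, against 5.8%. Among the 12 other kept CXC genes, 3 were higher and 3 lower, with a median of -0.52 log2. The split of all genes moved with the scaling, to 7.91% higher and 7.48% lower after a further quantile normalisation and to 8.32% and 7.11% after cyclic loess. Under both of these, Cxcr4 was just short of 2-fold, at 0.95 and 0.94 log2. Among genes at or above the median level, where all 10 members lay, the shares were larger, at 15.2% higher and 6.82% lower. The median difference of the members was 1.72 log2, beside 0.03 log2 for all kept genes.

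Cxcl2, a main neutrophil attractant of the mouse, read 8.44 log2 on the ligated array labelled Cd39-null, 6.09 on the ligated wild-type array, 2.46 on the Cd39-null sham array and 5.17 on the wild-type sham array. The ligated array labelled Cd39-null was the highest of the 4, and Cd39-null, sham, lay under background. The difference between these arrays was 5.98 log2, the highest of all 14115 genes, and it stayed the highest when every value under its array's background was set to that background. With the sham level set at the background of its array, Cxcl2 was at least 44.5-fold higher after ligation. Set against wild type, sham, instead, the same ligated array was 3.27 log2 higher.

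Cxcl3, a close relative of Cxcl2 that also acts on Cxcr2, read 6.88 log2 on the ligated array labelled Cd39-null, 3.75 on the ligated wild-type array, 3.50 on the Cd39-null sham array and 3.62 on the wild-type sham array. A single array was high, and the other 3 lay close together a little above background. The Cd39-null difference was 3.39 log2, or 10.5-fold, the 50th highest of all kept genes. Against wild type, sham, it was 3.27 log2, so Cxcl2 and Cxcl3 were equally far above that array.

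Cxcl1, a further ligand of Cxcr2, read 6.44 log2 on the ligated array labelled Cd39-null, 4.87 on the ligated wild-type array, 4.93 on the Cd39-null sham array and 4.76 on the wild-type sham array. As for Cxcl3, a single array stood apart from the other 3. The Cd39-null difference was 1.51 log2, or 2.84-fold. Whether probes for Cxcl1, Cxcl2 and Cxcl3 take up one another's RNA was not tested, since probe sequences were not used here.

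Cxcl5, the ligand of Cxcr2 named LIX in the mouse, read 6.37 log2 on the ligated array labelled Cd39-null, 5.20 on the ligated wild-type array, 2.03 on the Cd39-null sham array and 2.74 on the wild-type sham array. Both ligated arrays were high and both sham arrays lay under background, a pattern that no other member showed. In vein labelled Cd39-null it was at least 10.6-fold higher after ligation, counting the sham value as background, beside a measured difference of 4.34 log2.

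Cxcr2, the receptor through which neutrophils sense these ligands, read 8.50 log2 on the ligated array labelled Cd39-null, 6.09 on the ligated wild-type array, 6.11 on the Cd39-null sham array and 4.42 on the wild-type sham array. Either ligated array was above its own sham array, and either Cd39-null array was above its wild-type counterpart. The difference after ligation was 2.39 log2, or 5.25-fold, in vein labelled Cd39-null. Neutrophil markers averaged 6.60 log2 on the ligated array labelled Cd39-null, 4.56 on the ligated wild-type array, 4.92 on the Cd39-null sham array and 4.35 on the wild-type sham array. Of the 18 markers 15 were on the array by a single symbol. After ligation in vein labelled Cd39-null, 1 of these was at least 2-fold lower (5.8% of all kept genes) and 7 were at least 2-fold higher (10.9%). Among them were the growth factor receptor Csf3r (4.54 log2), the gelatinase Mmp9 (4.22, or at least 4.09 since its sham value was under background), the decoy receptor Il1r2 (3.93) and the lectin Clec4d (3.82). In bulk RNA, more cells of a type and more RNA per cell cannot be told apart, and the part of neutrophil number in the Cxcr2 difference was not tested.

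Cxcr4, the receptor for Cxcl12 on many leukocytes and progenitors, read 8.26 log2 on the ligated array labelled Cd39-null, 6.48 on the ligated wild-type array, 7.11 on the Cd39-null sham array and 6.30 on the wild-type sham array. Its Cd39-null ligation difference was 1.15 log2, or 2.22-fold. Cxcl12 itself read 6.21 log2 on the ligated array labelled Cd39-null, 7.37 on the ligated wild-type array, 5.95 on the Cd39-null sham array and 6.75 on the wild-type sham array. Ligand and receptor thus ordered the arrays differently, with Cxcl12 highest in wild type, ligated, and Cxcr4 highest on the ligated array labelled Cd39-null. The Cd39-null difference of Cxcl12 was 0.26 log2 against its own sham array, -0.04 log2 after a further quantile normalisation and -0.54 log2 against wild type, sham, so its sign depended on the scaling and the baseline.

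Cxcl14, a chemokine of epithelial and stromal cells, read 7.09 log2 on the ligated array labelled Cd39-null, 6.02 on the ligated wild-type array, 5.16 on the Cd39-null sham array and 5.84 on the wild-type sham array. The difference of 1.93 log2, or 3.81-fold, in vein labelled Cd39-null was the largest of the members outside the Cxcr2 ligands and Cxcr2. Against wild type, sham, it was 1.25 log2.

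Cxcl13, the B cell attractant, read 6.80 log2 on the ligated array labelled Cd39-null, 6.58 on the ligated wild-type array, 8.28 on the Cd39-null sham array and 6.98 on the wild-type sham array. Cd39-null, sham, was the array apart, and the other 3 lay close together. Cxcl13 was 2.78-fold lower after ligation in vein labelled Cd39-null (-1.47 log2), but only -0.18 log2 apart when wild type, sham, was the baseline. B cell markers showed the same array apart, with mean levels of 2.68 log2 on the ligated array labelled Cd39-null, 2.49 on the ligated wild-type array, 4.67 on the Cd39-null sham array and 3.05 on the wild-type sham array. Of 7 measured B cell markers 6 were at least 2-fold lower after ligation in vein labelled Cd39-null, against 5.8% of all kept genes. Among the 6 were Ms4a1 (-3.89 log2) and Fcer2a (-2.54), and 4 of the 7 markers were at or under background on that ligated array. With such values set to background, 5 of 7 were at least 2-fold lower, Ms4a1 lay at -3.55 log2 and Fcer2a at -1.91 log2. Adipocyte markers, which a piece of vein with attached fat would carry, averaged 4.83 log2 on the ligated array labelled Cd39-null, 5.16 on the ligated wild-type array, 7.48 on the Cd39-null sham array and 5.36 on the wild-type sham array. All 8 of them were at least 2-fold lower in the same comparison. The part of B cells or fat in the Cxcl13 difference was not tested.

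Cxcl10, the interferon-induced ligand of Cxcr3, read 4.25 log2 on the ligated array labelled Cd39-null, 3.99 on the ligated wild-type array, 4.39 on the Cd39-null sham array and 4.00 on the wild-type sham array. It spanned 0.41 log2 over the 4 arrays, the narrowest range of the members, and its ligation differences were -0.14 log2 in vein labelled Cd39-null and -0.02 log2 in wild type. Of 11 measured interferon response genes, 1 was at least 2-fold higher and 2 were lower in vein labelled Cd39-null, against 10.9% and 5.8% of all kept genes. In wild type 0 were higher and 2 lower, against 6.6% and 3.63%. Counts this small say little about the list. Lower in both genotypes were Ifit3 (-2.61 log2 labelled Cd39-null, -2.07 wild type) and Ifit1 (-1.55 and -1.59), and higher in vein labelled Cd39-null was the transcription factor Irf1 (1.18).

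**Figure D2:**
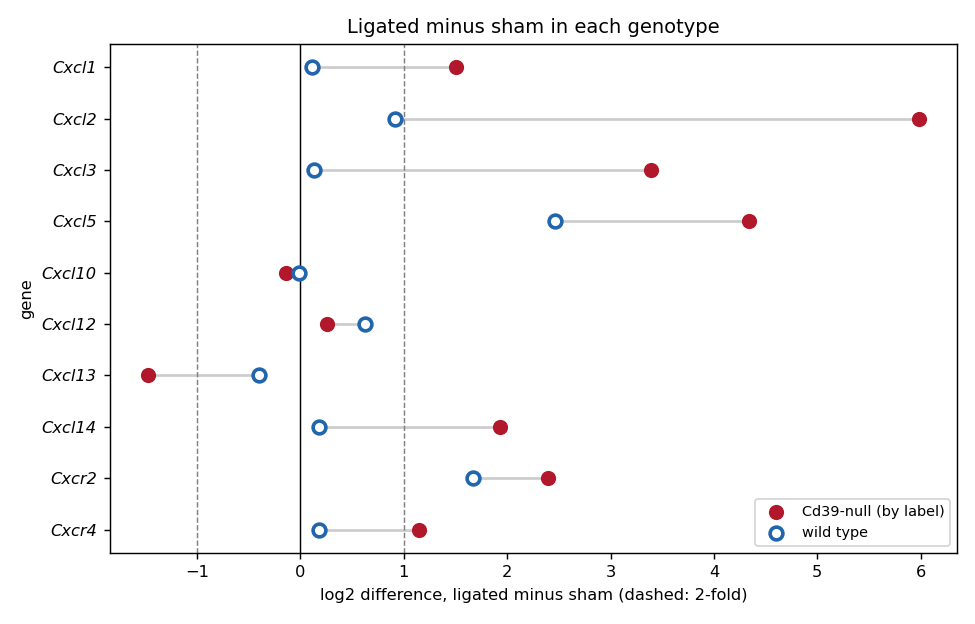
Log2 difference, ligated minus sham (horizontal axis), of each gene (vertical axis), in vein labelled Cd39-null (filled) and wild type (open). Dashed lines mark 2-fold. Cxcl5 and Cxcr2 pass 2-fold in both genotypes, and Cxcl1, Cxcl2, Cxcl3, Cxcl14 and Cxcr4 pass it in vein labelled Cd39-null and not in wild type.

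In wild-type vein the same question gave a smaller set. Cxcl5 was at least 4.85-fold higher in wild type, ligated, than in wild type, sham, taking the sham value as background, beside a measured difference of 2.46 log2. Cxcr2 was 1.67 log2, or 3.18-fold, higher. Cxcl2 was 0.92 log2 apart, or 1.89-fold, and Cxcl12 0.62 log2, or 1.54-fold. The other 6 members lay within 1.5-fold, with Cxcl1 at 0.11 (-0.03 after a further normalisation), Cxcl3 at 0.13, Cxcl14 at 0.18, Cxcr4 at 0.18, Cxcl10 at -0.02 and Cxcl13 at -0.40 log2. Hence 2 of 10 members were at least 2-fold higher, against 6.6% of all kept genes, and 0 of 10 at least 2-fold lower, against 3.63%. Among genes at or above the median level these shares were 9.25% and 4.18%. The median member difference was 0.18 log2, beside -0.01 log2 for all kept genes.

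The leukocyte lists did not follow one another in the wild-type comparison. In it 6.6% of all kept genes were at least 2-fold higher and 3.63% lower, beside 10.9% and 5.8% in vein labelled Cd39-null. Of 11 monocyte and macrophage markers, all 11 were at least 2-fold higher in wild type, ligated, than in wild type, sham, and 9 were so in vein labelled Cd39-null. Examples were Arg1, an arginine-degrading enzyme (4.45 log2 labelled Cd39-null, 2.33 wild type), the scavenger receptor Msr1 (3.78 and 2.70) and the integrin chain Itgam (3.65 and 2.17). Neutrophil markers were at least 2-fold higher in 2 of 15 cases, with a median of -0.02 log2, although Csf3r (1.83) and Clec4d (1.79) were among the 2. Of 11 endothelial markers 7 were at least 2-fold lower in wild type, ligated, and 0 were so in vein labelled Cd39-null. The part of any of these cell types in the wild-type chemokine differences was not tested.

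Cytokines and NF-κB target genes that accompany neutrophil chemokines were also compared. The counts below stand beside shares of all kept genes of 10.9% higher and 5.8% lower in vein labelled Cd39-null, and 6.6% and 3.63% in wild type. Of 10 measured, 6 were at least 2-fold higher and 0 lower in vein labelled Cd39-null (5 higher with values under background set to background), and 2 were higher and 0 lower in wild type. They included Il6 (4.40 log2 labelled Cd39-null, 1.69 wild type), Il1b (3.34 and 1.42), Tnf (1.61 and 0.84) and Nfkbiz (1.37 and 0.39). Il6 was under background in wild type, sham, and Tnf on both sham arrays, and with those values set to background the differences were 1.36 log2 for Il6 in wild type and 1.37 log2 labelled Cd39-null and 0.60 log2 in wild type for Tnf. Csf2 and Csf3 were too dim to be kept. Among 12 signalling proteins used by CXC receptors in leukocytes, 9 were at least 2-fold higher in vein labelled Cd39-null and 5 in wild type, and 0 were lower. The leukocyte GTPase Rac2 (1.97 and 1.43), the arrestin Arrb2 (1.87 and 1.20), the kinase adaptor Pik3r5 (1.60 and 1.87) and the exchange factor Prex1 (1.36 and 1.34) were at least 2-fold higher in both.

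**Figure D3:**
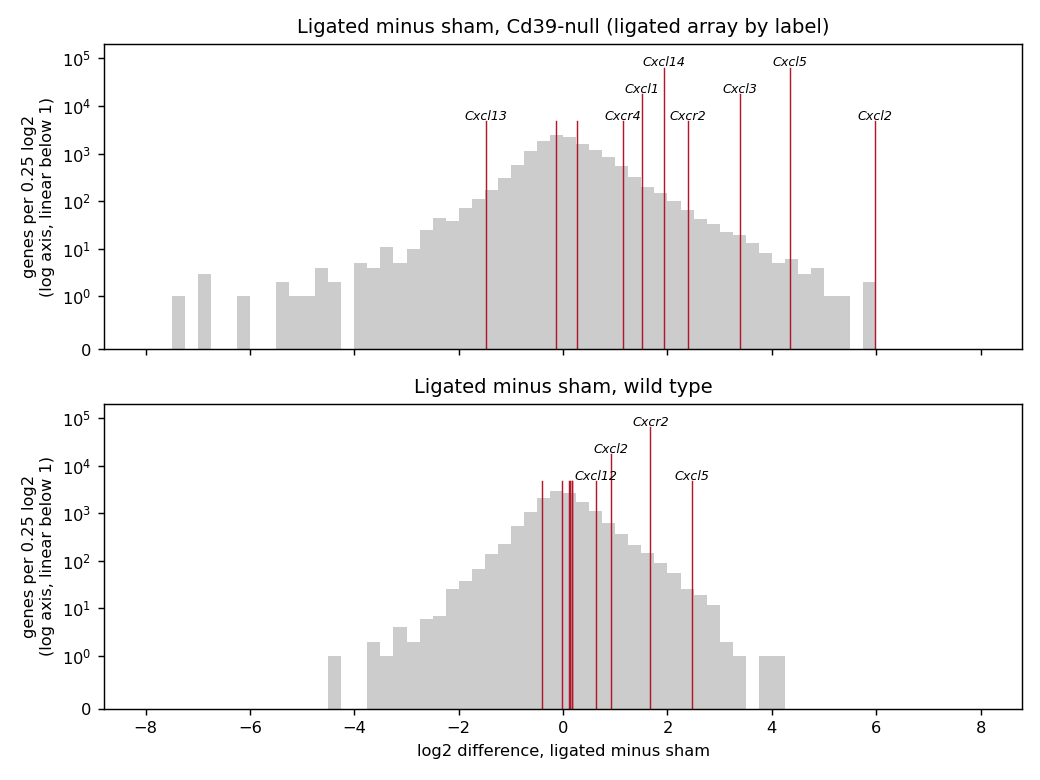
Number of kept genes (vertical axis, logarithmic above 1 and linear below) in bins of 0.25 log2 of the ligated minus sham difference (horizontal axis), in vein labelled Cd39-null (top) and wild type (bottom). Red lines mark the 10 members, named where they lie at least 0.6 log2 from 0. In vein labelled Cd39-null, Cxcl2 forms the right edge at 5.98 log2, and in wild type Cxcl5 is the outermost member at 2.46 log2.

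Ligation was also tested over both genotypes with limma (additive terms for genotype and ligation). With 4 arrays this leaves 1 residual degree of freedom, and unlike responses in the genotypes enter the error. By limma, 0 of 10 members passed an adjusted p of 0.05, against 0% of all kept genes. At an unadjusted p under 0.05, 3 members were higher and 1 lower, against 21.0% of all kept genes (1860 higher and 1100 lower). Cxcr2 had a mean ligation difference of 2.03 ± 0.28 log2 (SE, limma adjusted p = 0.0952), and Cxcl5 had 3.40 ± 0.49 log2 (limma adjusted p = 0.0952). No gene had a smaller adjusted p, but the value is a tie shared with other genes. Among these, Msr1, Ifit3 and Ifit1 had smaller unadjusted p-values than Cxcl5. Cxcl2 had a larger mean of 3.45 ± 1.19 log2 but, with unlike values in the genotypes, a limma adjusted p of 0.208. Cxcl13 had -0.94 ± 0.33 log2 (limma adjusted p = 0.216). The other 6 members had limma adjusted p-values between 0.282 and 0.868. With the genotype label left out of the model, a choice made after the Entpd1 level was seen, 2 of 10 members had an unadjusted limma p under 0.05, against 2706 of 14115 genes. In that fit the limma adjusted p of Cxcr2 was 0.319 and that of Cxcl5 was 0.101, within ranges over all alternatives of 0.0759 to 0.319 and 0.0759 to 0.116.

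The next question was whether CD39 loss altered these genes in ligated vein, for which the ligated array labelled Cd39-null was set against wild type, ligated. The members classed as ligands of Cxcr2 and both member receptors were higher in the vein labelled Cd39-null, and Cxcl12 was lower. Cxcl3 led with 3.13 log2, or 8.76-fold, followed by Cxcr2 with 2.41 log2, or 5.33-fold, and Cxcl2 with 2.35 log2, or 5.11-fold. Cxcr4 was 3.43-fold, Cxcl1 2.96-fold, Cxcl5 2.25-fold and Cxcl14 2.10-fold higher. Cxcl12 was 2.24-fold lower (-1.16 log2), and Cxcl10 (0.26 log2) and Cxcl13 (0.22 log2) were less than 2-fold apart. In all, 7 of 10 members were at least 2-fold higher, against 3.61% of all kept genes, and 1 of 10 was at least 2-fold lower, against 2.66%. None of these differences has a replicate, and Entpd1 itself did not separate these arrays.

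Markers of several cell types differed between the same ligated arrays, on which 3.61% of all kept genes were at least 2-fold higher and 2.66% lower. Neutrophil markers were at least 2-fold higher on the ligated array labelled Cd39-null in 11 of 15 cases, with a median of 2.18 log2. All 7 measured platelet markers were at least 2-fold higher, with a mean level of 7.51 log2 against 3.24 log2 in wild type, ligated. Monocyte and macrophage markers went both ways around a median of 0.00 log2, 3 being higher and 2 lower. Fibroblast and smooth muscle markers, beside which the lower Cxcl12 stands, were at least 2-fold lower in 9 of 14 cases, with mean levels of 6.27 log2 on the ligated array labelled Cd39-null and 7.46 log2 on the wild-type one. The part of these cell types in the chemokine differences was not tested.

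**Figure D4:**
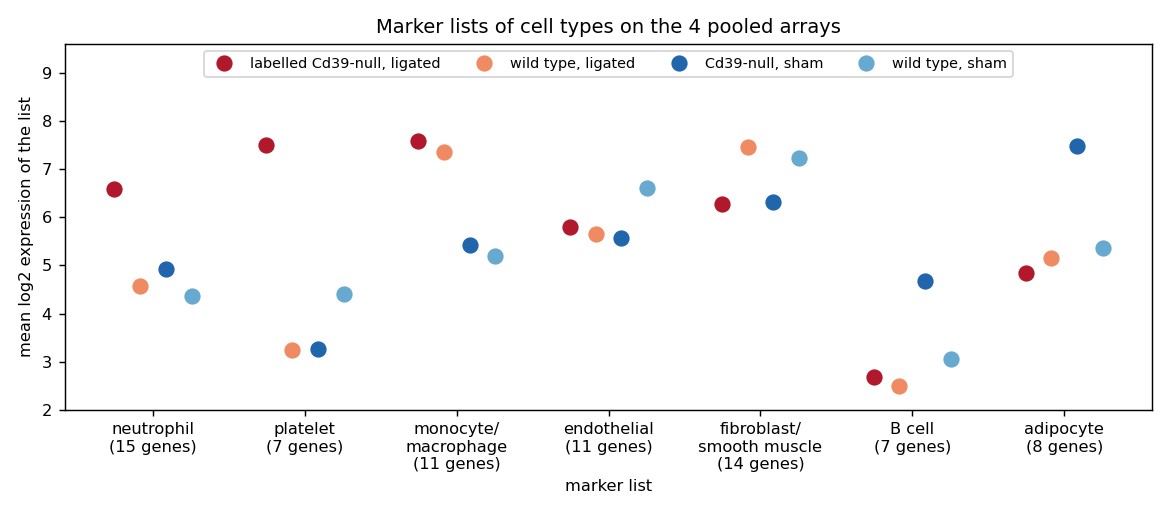
Mean log2 expression (vertical axis) of 7 marker lists (horizontal axis, with the number of kept genes) on the 4 pooled arrays, 1 point per array. The ligated array labelled Cd39-null is highest for platelet markers at 7.51 and neutrophil markers at 6.60, and Cd39-null, sham, is highest for B cell markers at 4.67 and adipocyte markers at 7.48.

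Without ligation, Cd39-null vein differed from wild-type vein in fewer of these genes. Cxcr2 (1.69 log2, 3.23-fold) and Cxcl13 (1.30 log2, 2.46-fold) were higher in Cd39-null, sham. Cxcl2 was lower, by at least 4.61-fold when the Cd39-null value is taken as background, beside a measured difference of -2.71 log2. Thus 2 of 10 members were at least 2-fold higher, against 2.95% of all kept genes, and 1 of 10 at least 2-fold lower, against 3.54%; after cyclic loess these genome-wide shares were 3.51% and 2.50%. Cxcr4 (0.81 log2), Cxcl10 (0.39), Cxcl1 (0.18), Cxcl3 (-0.12), Cxcl14 (-0.68) and Cxcl12 (-0.80) were less than 2-fold apart, and Cxcl5 was under background on both arrays. In the sham comparison, 3 of 7 platelet markers were at least 2-fold lower and 0 higher in Cd39-null, with a median of -0.78 log2, and the platelet chemokine Ppbp lay at -3.10 log2. Of the other lists, 6 of 7 B cell markers (5 with values under background set to background) and 7 of 8 adipocyte markers were at least 2-fold higher in Cd39-null, 4 of 15 neutrophil markers (3 so set) were higher and 0 lower, and 6 of 11 endothelial markers and 6 of 14 fibroblast and smooth muscle markers were lower. The part of these cell types in the Cxcl2, Cxcl13 and Cxcr2 differences was not tested.

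**Figure D5:**
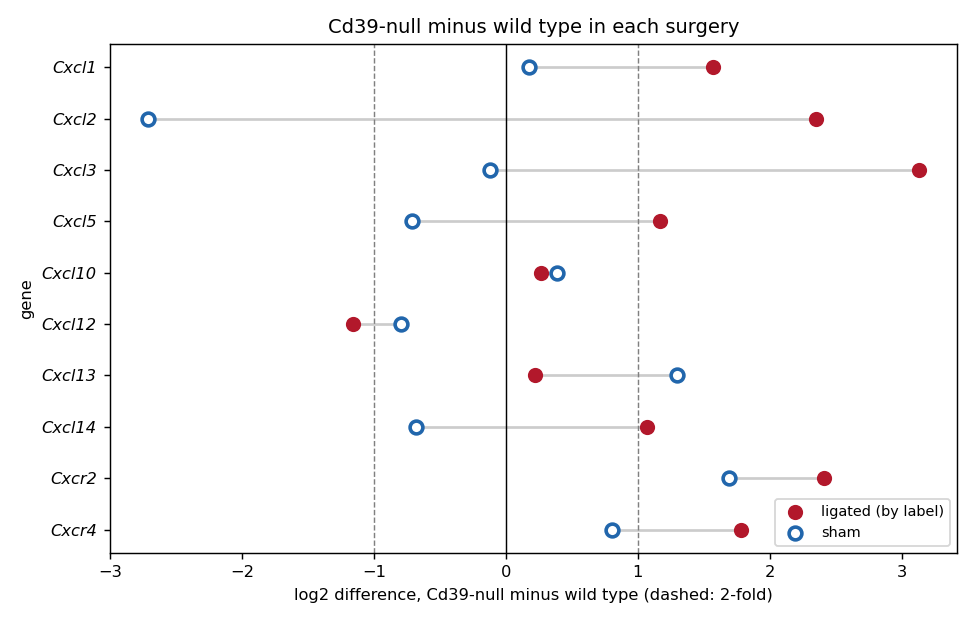
Log2 difference, Cd39-null minus wild type (horizontal axis), of each gene (vertical axis), in ligated vein by label (filled) and in sham vein (open). Dashed lines mark 2-fold. Cxcl2 lies at 2.35 in ligated and -2.71 in sham vein, whereas Cxcr2 lies above 1.6 in both.

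Cxcr2 was the only member at least 2-fold higher in Cd39-null in both surgeries, and Cxcl12 was the only member lower by more than 0.6 log2 in both (-1.16 log2 in ligated and -0.80 log2 in sham vein). Over both surgeries limma's genotype coefficient was 2.05 ± 0.28 log2 for Cxcr2, 1.29 ± 0.32 log2 for Cxcr4 and -0.98 ± 0.24 log2 for Cxcl12 (SE). The limma adjusted p was 0.667 for each of these. No gene had a smaller one, and genes outside the family such as Myh11, Col3a1 and Col1a2 shared the value. So 0 of 10 members passed, against 0% of all kept genes, and 3 of 10 had an unadjusted limma p under 0.05, against 6.94%.

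The difference between the ligation differences, labelled Cd39-null minus wild type, has no residual spread and was not tested. It was at least 2-fold above 0 for Cxcl2 (5.07 log2), Cxcl3 (3.25), Cxcl5 (1.88), Cxcl14 (1.75) and Cxcl1 (1.39), and at least 2-fold below 0 for Cxcl13 (-1.07). Thus 5 of 10 members were above, against 6.99% of all kept genes, and 1 of 10 was below, against 5.5%. Cxcr4 (0.97), Cxcr2 (0.72), Cxcl10 (-0.13) and Cxcl12 (-0.36) were less than 2-fold apart. Cxcl2 and Cxcl5 have sham values under background in this sum.

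The members classed as ligands of Cxcr2 lie in 1 block on chromosome 5. There RefSeq orders Cxcl5, Ppbp, Pf4, Cxcl3, Cxcl15, Cxcl1 and Cxcl2 with no other gene between them. Ppbp and Pf4, chemokines stored in platelet granules, sit between Cxcl5 and Cxcl3. Ppbp read 9.33 log2 on the ligated array labelled Cd39-null, 7.35 on the ligated wild-type array, 5.69 on the Cd39-null sham array and 8.79 on the wild-type sham array. Its ligation difference was 3.64 log2 in vein labelled Cd39-null and -1.44 log2 in wild type, so within the block it went the opposite way to its neighbour Cxcl5 in wild type. Pf4 had differences of 2.14 and 0.49 log2 in the same order. Cxcl15 was under background on all 4 arrays. Platelet markers averaged 7.51 log2 on the ligated array labelled Cd39-null, 3.24 on the ligated wild-type array, 3.27 on the Cd39-null sham array and 4.41 on the wild-type sham array. Of 7 measured, 7 were at least 2-fold higher after ligation in vein labelled Cd39-null, against 10.9% of all kept genes. In wild type 4 were lower, against 3.63%. Ppbp and this mean were both highest on the ligated array labelled Cd39-null and next highest in wild type, sham.

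Of the 13 other CXC chemokine and receptor genes, 12 were bright enough to be kept. In vein labelled Cd39-null, 3 of them were at least 2-fold higher after ligation and 3 lower, against 10.9% and 5.8% of all kept genes. In wild type 0 were higher and 2 lower, against 6.6% and 3.63%. Higher in vein labelled Cd39-null were Ppbp and Pf4. The third was the neutrophil receptor Cxcr1 (1.02 log2), which was above background only on the ligated array labelled Cd39-null and lay at 0.77 log2, under 2-fold, with its sham value set to background. Lower there were Cxcl9, an interferon-induced ligand of Cxcr3 (-1.95), Cxcr5, the receptor for Cxcl13 (-1.69), and Ackr3, a scavenging receptor for Cxcl12 (-1.40). Ackr3 read 5.42 log2 on the ligated array labelled Cd39-null, 5.21 on the ligated wild-type array, 6.82 on the Cd39-null sham array and 6.59 on the wild-type sham array. Both ligated arrays were below both sham arrays, with a wild-type difference of -1.38 log2 and a limma adjusted p of 0.0959 for ligation. Cxcr5 was above background only in Cd39-null, sham, at 3.95 log2, the same array on which Cxcl13 was highest. With the ligated value of Cxcr5 set to background, its difference in vein labelled Cd39-null was -1.27 log2. Cxcr3, Cxcr6, Ackr1, Cxcl11, Cxcl16 and Cxcl17 were less than 2-fold apart after ligation in either genotype.

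The genes closest in pattern were found by the Euclidean distance between log2 values, each gene centred on its mean over the 4 arrays. For Cxcl2 these were Thbs1 (distance 0.88), Cxcl5 (1.65) and C5ar1 (1.78). Thbs1, which encodes the matrix and platelet protein thrombospondin, read 9.47 log2 on the ligated array labelled Cd39-null, 8.00 on the ligated wild-type array, 4.65 on the Cd39-null sham array and 7.11 on the wild-type sham array. For Cxcr2 they were Tarm1 (0.28), Slfn1 (0.71) and 6330407A03Rik (0.73). For Cxcl12 they were Lbh (0.13), Stmn1 (0.14) and Ext2 (0.16), for Cxcl13 Igkv6-20 (0.10), Tmem60 (0.14) and Cisd1 (0.14), and for Cxcl10 Dhodh (0.02), Mllt10 (0.04) and Plekhm3 (0.05). Igkv6-20 was above background only in Cd39-null, sham, at 3.57 log2. A small distance over 4 arrays is easily reached by genes of small range, such as those like Cxcl10, and none was tested.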

How the data were processed

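RNA of the inferior vena cava was extracted with Trizol, amplified to cDNA from 50 ng and labelled with biotin from 3 µg of cDNA, per the labels' protocols. The deposited log2 values were made by the authors with oligo and RMA, which the submitters' processing notes list without a version. RMA normalises by quantiles, which would hide a shift in total RNA, and the values were used as deposited. No read depth applies to arrays, and their number limits the precision. In the additive fit, the only residual is the difference between the genotypes' ligation responses, moderated by a prior drawn from all kept genes. Its SE and p-values therefore do not measure spread among replicate arrays or among mice.

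Of 35556 probe sets, 21218 had 1 gene symbol in the platform annotation, 1881 several and 12457 none, and only those with 1 were used. All 10 members kept their symbol in RefSeq's table. For the 1386 genes with several probe sets the brightest by mean was taken, and genes under the 25th percentile of the mean (2.29 log2) were left out. Comparisons are differences between arrays with no pseudocount, counted at 2-fold. The additive fit used limma 3.58.1 (lmFit and eBayes, prior of 3.67 degrees of freedom) in R 4.3.3 over all kept genes, with Benjamini-Hochberg adjustment. It was also run on simulated data with additive ligation changes and noise drawn from the fit's own prior. That run cannot show how the fit behaves where the genotypes respond unlike. Python 3.11.15 was used for the rest.

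The members and the 11 gene lists were chosen with earlier results of these data known. From each list at most 4 genes with the largest mean ligation difference could be named, all of the other CXC genes, the targeted gene, and the 3 genes closest in pattern to each of 5 members. A "bound" of at least so many fold replaces a value under the olfactory background by the background of that array. The alternatives were a further quantile normalisation, cyclic loess, the mean of a gene's probe sets, no filter or a filter at the median, 1.5-fold, wild type, sham, as the baseline, a variance trend, a fit without the genotype label, and values under background set to background.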

Additional observations from a re-analysis of the deposited data

Results flagged for a closer look

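For Cxcl2 and Cxcl14 the difference between Cd39-null and wild type had opposite signs in ligated and sham vein, with 1 array in each group. The change of sign was not tested, and the share of all kept genes with opposite signs was not counted. Cxcl2 lay at 2.35 log2 in ligated and -2.71 log2 in sham vein, a change of 5.07 log2. Its Cd39-null sham value was under background. With that value set to background, the sham difference was -2.20 log2 and the change 4.56 log2. Cxcl3 met the same criterion at 3.13 and -0.12 log2, a change of 3.25 log2. Its sham value was -0.02 log2 after cyclic loess, and the median of all kept genes in sham vein was -0.07 log2. The sham sign of Cxcl3 thus cannot be read. Cxcl14 lay at 1.07 and -0.68 log2, a change of 1.75 log2. Cxcl5 met the same criterion by its measured values of 1.17 and -0.71 log2, which are 1.88 log2 apart, but both sham values were under background, so the sham sign cannot be read. All 4 genes use the ligated array whose Entpd1 level goes against its label.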

How the results depend on the processing

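The counts of members at least 2-fold apart stayed within 1.5 times of those reported under every alternative run, except 3. At 1.5-fold, 4 members were higher after ligation in wild type, against 15.8% of all kept genes. By the same cut 4 were lower in Cd39-null than in wild-type sham vein, against 13.9%. Of the latter 4, Cxcl5 compares values both under background. With wild type, sham, as the baseline for the ligated array labelled Cd39-null, 0 members were at least 2-fold lower. The share of all kept genes was 6.58%, and Cxcl13 lay at -0.18 log2. Over these settings Cxcl2 was between 3.27 and 5.99 log2 higher after ligation in vein labelled Cd39-null, and Cxcr2 between 2.14 and 4.08 log2, the lower end for Cxcl2 and the upper end for Cxcr2 coming from that baseline. Setting values under background to background, chosen after the data were seen, left every count of members at least 2-fold apart as reported. No limma alternative called any member, with adjusted p-values of 0.0759 to 0.116 for Cxcl5 and 0.0759 to 0.319 for Cxcr2. No paired analysis was possible because each genotype has only 1 ligated and 1 sham array. The limma fit sets ligated against sham within genotype through its genotype term. With 1 array a group, no array could be left out of a pair.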
